A study of Mus musculus with 12 samples.

Results

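Macrophages from cutaneous squamous cell carcinomas, a skin cancer, were split by whether they carried FceRIa on the surface, the chain with which the high-affinity receptor binds IgE, and the transcriptomes of the positive and negative cells were compared over all genes. The comparison holds 6 of the 12 libraries of the series, chosen by their labels, with 3 libraries of FceRIa-positive and 3 of FceRIa-negative macrophages. The mice were of the FVB strain, and both groups were sorted by flow cytometry as CD45+ F4/80+ cells of tumor tissue, so that the leukocyte marker CD45 and the macrophage marker F4/80 were shared by all 6 libraries and FceRIa was the 1 labelled difference. No treatment, time point, age or transgene is given for these 6 libraries. The replicates carry the numbers 1 to 3 in each group, and the labels do not say whether a number marks a mouse, a tumor or a sort. The p-values therefore measure only the spread between these libraries.

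FceRI is the receptor through which mast cells and basophils respond to allergen bound to IgE. It is assembled from an IgE-binding alpha chain (gene Fcer1a), a signal-amplifying beta chain (Ms4a2) and a dimer of the gamma chain (Fcer1g), which also serves the activating receptors for IgG, and it signals through the kinases Lyn, Fyn and Syk. Some myeloid cells outside the mast cell lineage also carry FceRI. Tumor macrophages range from cells that resemble resident tissue macrophages, with scavenger receptors, lysosomes and growth factors, to cells recently derived from monocytes. In skin the F4/80 antigen is also found on Langerhans cells, the langerin-positive antigen-presenting cells of the epidermis, which share features with dendritic cells.

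Counts of reads per gene were scaled with the normalized library sizes to a library of 1000000 counts (CPM), and 3 counts correspond to between 0.0698 and 0.0888 CPM. Differences are on the log2 scale, positive minus negative, with their standard errors (SE). Adjusted p stands throughout for the Benjamini-Hochberg value of the edgeR quasi-likelihood fit over the 14988 genes tested, and a gene is said to rise or fall where the adjusted p was under 0.05. The total count was between 33704786 and 40041144 per library, and replicates of a group differed far beyond counting noise (the chi-square of their counts was 51.27 to 138.2 times its degrees of freedom). The X-inactivation RNA Xist had 8506, 4 and 16108 counts in negative replicates 1 to 3 and 12096, 6 and 18122 in positive replicates 1 to 3, and the Y-linked gene Ddx3y had 1287, 5972 and 3 and 1584, 4817 and 6. Replicate 2 thus held cells with the male pattern and replicate 3 cells with the female pattern, and replicate 1 held transcripts of both kinds in both groups. Replicates 2 and 3 thus came from different animals, while the source of replicate 1 is not given.

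**Figure D1:**
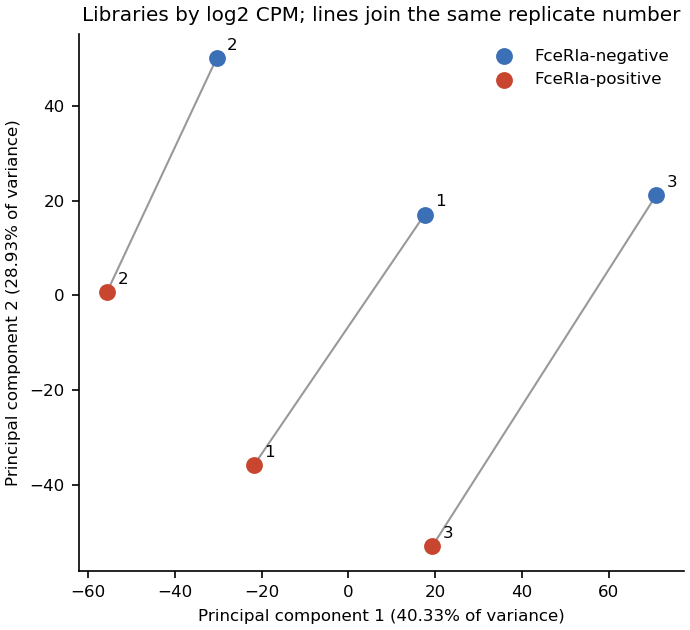
Principal components 1 (40.33% of the variance) and 2 (28.93%) of log2 CPM over the genes tested, 1 point per library, numbered by replicate, with a line between the negative (blue) and positive (red) library of the same number. In each number the positive library lies to the left of and below the negative one.

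The libraries went together by replicate number. Deviations from the group means, taken over the genes tested, correlated at 0.688, 0.787 and 0.734 between the negative and positive library of number 1, 2 and 3, and at -0.557 to -0.228 between libraries of different number. Deviations within a group cancel out, so the negative values follow from the positive ones and are not separate support for pairing. Given the same-number correlations, the number was used as a block, which compares the positive with the negative library inside each number. With this paired fit 1618 of the 14988 genes tested rose (10.8%) and 1524 fell (10.2%) in the positive macrophages, and 341 and 535 of them changed by at least 2-fold. With upper-quartile scaling, which lowered the median difference of all genes from -0.0039 to -0.058, the split was 1289 higher and 1868 lower. The unpaired fit, which ignores the numbers, called 0 genes in either direction (0% of the 14988), with a smallest adjusted p of 0.0585 and 1243 higher and 1102 lower genes at an unadjusted p under 0.05. DESeq2 without the block called 658 higher and 605 lower, and the unpaired edgeR fit called 292 and 331 when no filter on low counts was used. The shares over all genes tested (10.8% and 10.2%) are the background for list counts below from all 6 libraries with the main scaling. List counts under another setting have another background. With upper-quartile scaling it was 1289 higher and 1868 lower of 14988 genes. Without replicate 2 the paired fit called 1298 higher and 1374 lower of 14987 genes. Without replicate 3 it called 1743 higher and 1606 lower of 15512 genes. The groups did not overlap for 1738 higher and 1466 lower of the 14988 genes, among them 1104 and 946 of the calls. These counts are the background wherever groups are said below to separate. Every rise or fall named below is a call of the paired fit, which has 2 residual degrees of freedom. Without the libraries of replicate 1 that fit called 626 higher and 691 lower of 15235 genes. Of these calls, 1262 were also made with all 3 numbers in the same direction.

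**Figure D2:**
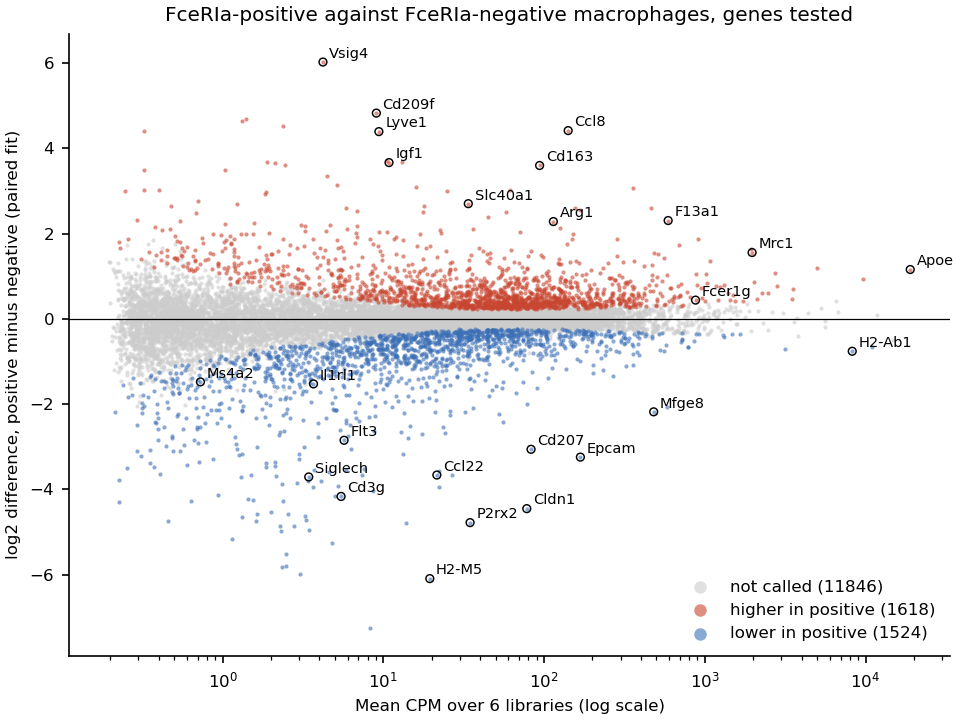
Log2 difference between FceRIa-positive and FceRIa-negative macrophages in the paired fit (vertical axis) against the mean CPM over 6 libraries (horizontal axis, log scale), 1 point per gene tested. Genes that rose are red (1618), genes that fell are blue (1524) and the others grey (11846), and circles mark genes described in the text.

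The mRNA of the sorted chain itself was at the limit of detection. Fcer1a had 0, 4 and 3 counts in negative replicates 1 to 3 and 2, 7 and 1 in positive replicates 1 to 3. It did not pass the filter on low counts, so no fold is given, and its level does not check the labels of the sort. The low-affinity IgE receptor gene Fcer2a had 3, 3 and 0 and 2, 0 and 0 counts. The gamma chain gene Fcer1g (ENSMUSG00000058715, chromosome 1, 171229572 to 171234365, minus strand, GRCm38) was at 811, 739.9 and 680.1 CPM in the negative and 944, 984 and 1098 CPM in the positive libraries, and rose by 0.44 ± 0.11 (adjusted p = 0.0273). The groups did not overlap. The beta chain gene Ms4a2 was near 1 CPM, at 0.578, 1.28 and 1.39 CPM in the negative and 0.304, 0.437 and 0.383 CPM in the positive libraries, and fell by 1.48 ± 0.32 (adjusted p = 0.0134). The positive libraries thus held less mRNA of the beta chain and more of the gamma chain, with very little of the alpha chain in either group. Fcer1g was not called without replicate 1 (adjusted p = 0.0549), without replicate 2 (adjusted p = 0.0999) or with upper-quartile scaling (adjusted p = 0.05004).

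Of 19 genes of the IgE receptor and its proximal signalling, 17 were tested, 3 rose and 4 fell, with a median difference of 0.03 against -0.0039 over all genes tested. Besides the gamma chain, the Src-family kinase Lyn rose by 0.32 ± 0.09 (adjusted p = 0.048) and the inhibitory receptor gene Cd300a by 0.34 ± 0.10 (adjusted p = 0.0487). Fyn, another Src-family kinase of the pathway, was at 36.99, 38.5 and 58.6 CPM in the negative and 29.3, 30.7 and 30.3 CPM in the positive libraries, and fell by 0.54 ± 0.12 (adjusted p = 0.0184). Phospholipase C gamma 2, encoded by Plcg2, was at 289, 258 and 344 CPM against 223, 204 and 249 CPM and fell by 0.39 ± 0.08 (adjusted p = 0.00993). All negative libraries were above all positive ones for both Fyn and Plcg2. The phosphatase gene Ptpn6, a brake on activating receptors, fell by 0.34 ± 0.08 (adjusted p = 0.0255), and its groups overlapped. Syk, the kinase that docks on the gamma chain, was at 306, 236 and 324 CPM and 338, 301 and 318 CPM, with a difference of 0.16 that was not called (adjusted p = 0.291). Lyn, Cd300a, Fyn, Plcg2 and Ptpn6 were not called without replicate 1 (adjusted p = 0.0824, 0.0669, 0.0682, 0.0544 and 0.101). Lyn, Cd300a and Ptpn6 were not called without replicate 2 (adjusted p = 0.194, 0.123 and 0.12). Lyn and Cd300a were not called without replicate 3 (adjusted p = 0.0957 and 0.113), with upper-quartile scaling (adjusted p = 0.0944 and 0.0921) or with a filter of 1 CPM in 3 libraries (adjusted p = 0.0505 and 0.0549). The counts of this list changed with the libraries and the scaling. There were 0 higher and 1 lower genes without replicate 1, 0 and 4 without replicate 2, and 0 and 5 with upper-quartile scaling.

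The genes behind the common gate were expressed in every library. Ptprc, which encodes CD45, was at 1035, 1357 and 1129 CPM in the negative and 1127, 1402 and 1177 CPM in the positive libraries and was not called (adjusted p = 0.61). Adgre1, the gene of F4/80, was at 687, 662 and 487 CPM in the negative and 969.6, 946 and 889.5 CPM in the positive libraries, and rose by 0.63 ± 0.11 (adjusted p = 0.00498). Of 10 macrophage markers 8 rose and 0 fell, with a median difference of 0.71. Lyz2, the lysozyme of myeloid cells, was at 7103, 6582 and 6017 CPM in the negative and 11597, 12258 and 14016 CPM in the positive libraries, and rose by 0.94 ± 0.15 (adjusted p = 0.004). Cd68, a late endosomal glycoprotein of phagocytes, was at 401, 379 and 352 CPM in the negative and 779, 577 and 769.7 CPM in the positive libraries, and rose by 0.899 ± 0.11 (adjusted p = 0.00144). Csf1r, the receptor for the macrophage growth factor CSF1, was at 2665, 2227 and 2513 CPM and 3144, 2384 and 2832 CPM and was not called (adjusted p = 0.307). Both groups thus held abundant macrophage transcripts, at higher levels in the positive libraries for 8 of the 10 markers. In RNA from sorted pools, a change in the number of cells of a type and a change in RNA per cell cannot be told apart.

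By the size rule (mean of at least 10 CPM and groups that do not overlap) the 12 largest rises were of Ccl8, Folr2, Pmp22, Igf1, Cd163, Adcy3, Vcam1, Cbr2, Fcna, Slc40a1, Slco2b1 and Fcrls, with log2 differences from 2.595 to 4.42. Some genes outside this rule, such as Vsig4, rose by more and are described below. Ccl8, a chemokine that attracts myeloid and T cells (ENSMUSG00000009185, chromosome 11, 82115185 to 82116799, plus strand), was at 11.1, 35.1 and 3.08 CPM in the negative and 199.7, 364 and 235 CPM in the positive libraries, and rose by 4.42 ± 0.45 (adjusted p = 0.000633). Cd163, the receptor for haptoglobin-hemoglobin complexes (ENSMUSG00000008845, chromosome 6, 124304656 to 124330527, plus strand), was at 15.6, 23.3 and 4.53 CPM in the negative and 312, 85.8 and 122 CPM in the positive libraries, and rose by 3.597 ± 0.50 (adjusted p = 0.00213). Vcam1, an adhesion molecule for integrins, was at 95.4, 143 and 27.3 CPM in the negative and 692, 652 and 529 CPM in the positive libraries, and rose by 3.08 ± 0.35 (adjusted p = 0.000887). For each of these genes negative replicate 3 was the lowest library. Slc40a1, which encodes the iron exporter ferroportin, was at 11.99, 9.44 and 5.65 CPM in the negative and 80.1, 55.3 and 40.3 CPM in the positive libraries, and rose by 2.702 ± 0.09 (adjusted p = 1.16e-05), the smallest adjusted p of all genes. Adcy3, an adenylate cyclase, was at 3.27, 5.21 and 1.66 CPM in the negative and 37.8, 23.5 and 23.8 CPM in the positive libraries, and rose by 3.104 ± 0.28 (adjusted p = 0.000421). Pmp22, a small membrane protein best known from myelin, was at 1.96, 2.53 and 1.01 CPM in the negative and 37.7, 16.5 and 18.9 CPM in the positive libraries, and rose by 3.67 ± 0.29 (adjusted p = 0.000255). Negative replicate 3 was again below the other negative libraries for these 3 genes. The carbonyl reductase gene Cbr2 rose by 3.03 ± 0.35, the ficolin gene Fcna, a soluble lectin of the complement system, by 3.004 ± 0.19, and the organic anion transporter gene Slco2b1 by 2.65 ± 0.27. Fcrls, an Fc receptor-like gene of macrophages, was at 162, 266 and 45.5 CPM in the negative and 809, 811 and 696 CPM in the positive libraries, and rose by 2.595 ± 0.38 (adjusted p = 0.00267). Cd163 and Fcrls were not called without replicate 1 (adjusted p = 0.0533 and 0.0512).

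**Figure D3:**
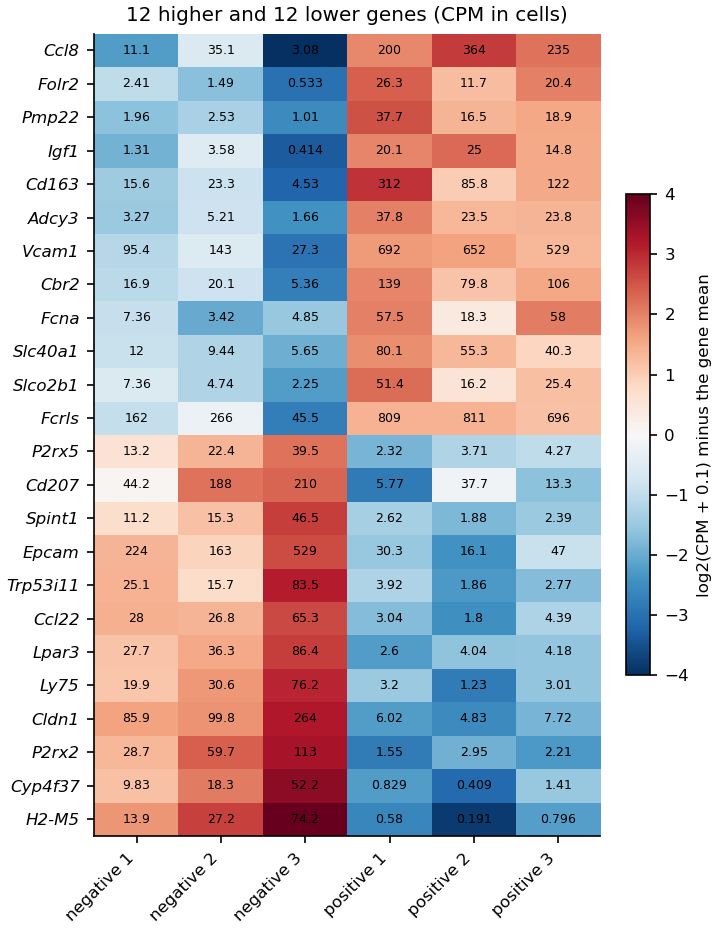
The 12 genes of largest rise and the 12 of largest fall by the size rule, with the CPM of each library printed in its cell and coloured by log2(CPM + 0.1) minus the mean of the gene (blue low, red high). The rule takes only genes whose groups do not overlap, so the separation of the groups in every row follows from the selection. Negative replicate 3 has the lowest value of 11 of the 12 upper genes and the highest of all 12 lower ones.

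Scavenger and phagocytic receptors of the resident macrophage type were higher in the positive macrophages. Of 21 tested, 14 rose and 1 fell, with a median of 0.95, and without replicate 1 the counts were 9 and 1. Mrc1, the mannose receptor, was at 1198, 1033 and 747 CPM in the negative and 3926, 2215 and 2701 CPM in the positive libraries, and rose by 1.56 ± 0.16 (adjusted p = 0.000611). Stab1, a scavenger receptor that takes up modified lipoproteins and matrix fragments, was at 577, 375 and 237 CPM in the negative and 1939, 972 and 1318 CPM in the positive libraries, and rose by 1.86 ± 0.19 (adjusted p = 0.000641). Msr1, the class A scavenger receptor, was at 749, 564 and 655 CPM in the negative and 1452, 1044 and 1654 CPM in the positive libraries, and rose by 1.06 ± 0.12 (adjusted p = 0.000795). All 3 are abundant transcripts, and for each of them the lowest positive library was above the highest negative one. Less abundant receptors changed by more. Lyve1, a hyaluronan receptor found on perivascular macrophages, was at 0.854, 1.63 and 0.148 CPM in the negative and 21.5, 16.98 and 15.2 CPM in the positive libraries, and rose by 4.39 ± 0.39 (adjusted p = 0.000395). Folr2, the folate receptor of resident macrophages, was at 2.41, 1.49 and 0.533 CPM in the negative and 26.3, 11.7 and 20.4 CPM in the positive libraries, and rose by 3.71 ± 0.33 (adjusted p = 0.000386). Vsig4, a complement receptor of resident macrophages, had 12, 3 and 0 counts in negative replicates 1 to 3, 592, 115 and 184 counts in positive replicates 1 to 3 and rose by 6.02 ± 0.37 (adjusted p = 0.000114), where the negative libraries were close to or at the 3-count floor. Mertk, a receptor tyrosine kinase that binds apoptotic cells through bridging proteins, was at 172, 147 and 107 CPM in the negative and 391, 291 and 281 CPM in the positive libraries, and rose by 1.19 ± 0.10 (adjusted p = 0.000274). Its bridging ligand genes Gas6 and Pros1 rose as well, by 2.59 ± 0.32 and 0.44 ± 0.08. The related kinase Axl was at 1237, 1122 and 1208 CPM and 847, 1052 and 1104 CPM and was not called (adjusted p = 0.168). The 1 receptor-pathway gene that fell was Mfge8, a bridging protein that is also a marker of Langerhans cells, and it is described with them. Pros1 was not called without replicate 1 (adjusted p = 0.0625).

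C-type lectins, which bind sugars on microbes and cells, were split. Of 21 tested, 8 rose and 3 fell, against 5 and 2 without replicate 1 and 8 and 7 without replicate 3. Cd209f and Cd209g, relatives of the dendritic cell lectin DC-SIGN, had the largest rises of the list. Cd209f was at 0.679, 1.09 and 0.0888 CPM in the negative and 13.1, 24.2 and 15.2 CPM in the positive libraries, and rose by 4.83 ± 0.35 (adjusted p = 0.000191). Cd209g rose by 4.53 ± 0.36 from 0.251, 0.256 and 0.0592 CPM to 3.09, 6.39 and 4.24 CPM. Reads shared between members of the Cd209 family cannot be told apart. Clec4n, which encodes dectin-2, was at 1068, 1032 and 946 CPM in the negative and 1169, 1524 and 1461 CPM in the positive libraries, and rose by 0.44 ± 0.12 (adjusted p = 0.0376). Clec4d rose by 0.75 ± 0.09. Clec11a, a secreted growth factor of this family, fell from 2.31, 3.19 and 6.45 CPM to 0.525, 0.573 and 0.678 CPM, by 2.65 ± 0.27. The third gene that fell besides Cd207 was Mgl2 (-0.56, adjusted p = 0.0233), a galactose-binding lectin of dermal dendritic cells, whereas its close relative Clec10a rose (0.68, adjusted p = 0.0034). Mgl2 was not called without replicate 1 (adjusted p = 0.0813). Clec4n was not called without replicate 2 (adjusted p = 0.203) or with upper-quartile scaling (adjusted p = 0.0652).

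Receptors for IgG moved with the gamma chain that several of them share. Of 7 genes of IgG Fc receptors and related Fc receptors tested, 6 rose and 0 fell, with a median of 0.78. The risers include the Fc receptor-like gene Fcrls, which is described above. Fcgr2b, the inhibitory receptor and the most abundant of them, was at 2559.9, 1929.6 and 1788 CPM in the negative and 3958, 3156 and 3549.99 CPM in the positive libraries, and rose by 0.78 ± 0.12 (adjusted p = 0.00334). Fcgr3, an activating receptor that signals through the gamma chain, was at 1316, 1088 and 943 CPM in the negative and 1774, 1674 and 1626 CPM in the positive libraries, and rose by 0.61 ± 0.11 (adjusted p = 0.006). Fcgr4, which binds IgG and in mice also IgE of some allotypes, was at 39.3, 28.8 and 25.1 CPM in the negative and 54.1, 58.4 and 47.2 CPM in the positive libraries, and rose by 0.797 ± 0.11 (adjusted p = 0.00207). For these 3 receptors the groups did not overlap. Fcgrt, the neonatal Fc receptor that salvages IgG, rose by 1.48 ± 0.16 (adjusted p = 0.000714), from 208, 142 and 103 CPM to 565, 291 and 399 CPM. Fcgr1, the high-affinity IgG receptor, rose by 0.46 ± 0.14. Close sequence similarity between Fcgr2b, Fcgr3 and Fcgr4 leaves some uncertainty in how reads were divided among them. Fcgr1 was not called without replicate 2 (adjusted p = 0.0821), without replicate 3 (adjusted p = 0.0525), with upper-quartile scaling (adjusted p = 0.0773) or with a filter of 1 CPM in 3 libraries (adjusted p = 0.0571).

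Complement genes rose in part. Of 21 tested, 12 rose and 0 fell (median 0.44), and without replicate 1 the count was 6. The 3 chains of C1q, which start the classical pathway and mark mature macrophages, rose by 0.47 ± 0.14 (C1qa), 0.62 ± 0.16 (C1qb) and 0.61 ± 0.15 (C1qc). C1qa was at 3267, 3214 and 2358 CPM in the negative and 3819, 4191 and 4121 CPM in the positive libraries. The anaphylatoxin receptors for C3a and C5a also rose. C3ar1 was at 436, 485 and 253 CPM in the negative and 782, 788 and 726 CPM in the positive libraries, and rose by 1.02 ± 0.15 (adjusted p = 0.00305). C5ar1 was at 124, 91.5 and 86.5 CPM in the negative and 237, 157 and 204 CPM in the positive libraries, and rose by 0.98 ± 0.10 (adjusted p = 0.000611). C4b, a component of the classical pathway, was at 8.57, 12.8 and 6.01 CPM in the negative and 49.3, 33.1 and 27.96 CPM in the positive libraries, and rose by 2.02 ± 0.20 (adjusted p = 0.000566). The positive library of each number was above its negative one for C3ar1, C5ar1 and C4b. C1qa, C1qb and C1qc were not called without replicate 1 (adjusted p = 0.0849, 0.0728 and 0.0721). C1qa was not called without replicate 2 (adjusted p = 0.159), without replicate 3 (adjusted p = 0.0875), with upper-quartile scaling (adjusted p = 0.0816) or with a filter of 1 CPM in 3 libraries (adjusted p = 0.0543).

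Lysosomal genes rose broadly and by small amounts. Of 36 tested, 23 rose and 1 fell, with a median of 0.42, and without replicate 1 the counts were 11 and 0. The gene that fell was Tfeb (-0.35, adjusted p = 0.0144), which encodes a transcription factor of lysosomal genes. Ctsb, a cysteine protease of the lysosome, was at 3445, 3525 and 2264 CPM in the negative and 7109, 6634 and 6889.5 CPM in the positive libraries, and rose by 1.19 ± 0.16 (adjusted p = 0.0019). Lgmn, the asparaginyl endopeptidase legumain, was at 2258, 1743 and 1301 CPM in the negative and 4109, 3059 and 3878 CPM in the positive libraries, and rose by 1.08 ± 0.17 (adjusted p = 0.00313). Ctsd, an aspartyl protease, was at 712, 511 and 499.8 CPM in the negative and 1274, 991 and 1296 CPM in the positive libraries, and rose by 1.06 ± 0.12 (adjusted p = 0.000981). Each of the 3 proteases had all positive libraries above all negative ones. Lamp1, a membrane glycoprotein of the lysosome, was at 1096, 829.5 and 845 CPM in the negative and 1695, 1257 and 1708 CPM in the positive libraries, and rose by 0.75 ± 0.12 (adjusted p = 0.00329). Grn, the gene of progranulin, rose by 0.79 ± 0.11, and its level followed the number, with 1248, 701 and 952 CPM in the negative and 2089.6, 1093 and 1870.4 CPM in the positive libraries. Ctss, the protease that trims the invariant chain of MHC class II, was at 4784, 5155 and 4399.8 CPM and 5022, 5984 and 6214 CPM and was not called (adjusted p = 0.213). Tfeb was not called without replicate 1 (adjusted p = 0.0894).

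Promoters of 2 of these genes are shown because lysosomal members rose together and part of them carry a CACGTG hexamer, the E-box read by MiT/TFE factors. RefSeq promoter sequences (GRCm38.p6) were found for 30 of the 36 lysosomal genes tested, and 7 of them (23.3%) held CACGTG in the 250 bases before the start, against 6.05% of the promoters of 27025 genes. The hexamer is its own reverse complement, so both strands were covered by 1 search, and it overlaps with neither of the other motifs searched. The 7 were Lamp1, Ctsd, Ctsl, Gla, Gaa, Glb1 and Naglu, and all 7 rose, as did 23 of the 36 lysosomal genes tested. Naglu was not called without replicate 1 (adjusted p = 0.118). Whether the hexamer had a part in the rises was not tested. The 120 bases before the start are printed 5′ to 3′ on the strand of the gene, with CACGTG in capitals, which occurs 4 times in Lamp1 and once in Ctsd.
Lamp1, chr8:13159041-13159160, plus strand: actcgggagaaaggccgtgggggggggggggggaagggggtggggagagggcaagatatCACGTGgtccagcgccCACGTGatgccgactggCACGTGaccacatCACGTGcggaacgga
Ctsd, chr7:142387828-142387947, minus strand: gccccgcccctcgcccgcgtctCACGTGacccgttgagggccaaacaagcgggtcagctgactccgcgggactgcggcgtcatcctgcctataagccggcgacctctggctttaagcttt
A match describes these letters and is not evidence of a bound site.

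Genes of lipid handling were mixed. Of 21 genes of lipid uptake and cholesterol efflux tested, 9 rose and 3 fell (median 0.18). The counts were 6 and 2 without replicate 1, and 9 and 1 without replicate 2. Apoe, the apolipoprotein of cholesterol efflux and the most abundant gene of the list, was at 15701, 12649 and 7774 CPM in the negative and 26778, 23456 and 27468 CPM in the positive libraries, and rose by 1.16 ± 0.23 (adjusted p = 0.00929). Abca1, the transporter that loads cholesterol onto apolipoproteins, was at 295, 333 and 175 CPM in the negative and 886, 764 and 602 CPM in the positive libraries, and rose by 1.52 ± 0.12 (adjusted p = 0.000274). Nr1h3, the oxysterol receptor LXR alpha, was at 33.4, 40.9 and 29.6 CPM in the negative and 66.9, 69.1 and 88.7 CPM in the positive libraries, and rose by 1.11 ± 0.14 (adjusted p = 0.00146). The positive libraries were above all negative ones for these 3 genes of efflux. Trem2, a lipid-sensing receptor, rose by 0.75 ± 0.14 and the phospholipid transfer protein gene Pltp by 1.33 ± 0.20. Among the 3 that fell were the cholesterol ester hydrolase gene Nceh1 (-0.64) and the tetraspanin gene Cd9 (-0.37). Spp1, the secreted phosphoprotein osteopontin, was at 1864, 1262 and 1516 CPM and 1944, 1439 and 1875 CPM and was not called (adjusted p = 0.253). Pltp and Cd9 were not called without replicate 1 (adjusted p = 0.0517 and 0.0571). Cd9 was not called without replicate 2 (adjusted p = 0.092).

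Of 15 iron and heme genes tested, 11 rose and 2 fell, with a median of 0.54, and the counts were 11 and 2 without replicate 1. Besides ferroportin, Hmox1, the heme-degrading oxygenase, was at 176, 119.97 and 129.5 CPM in the negative and 495, 292 and 289.9 CPM in the positive libraries, and rose by 1.31 ± 0.09 (adjusted p = 0.00017). Blvrb, a biliverdin reductase that acts downstream of it, rose by 0.84 ± 0.10, from 53.7, 57.7 and 40.5 CPM to 89.4, 90.04 and 89.6 CPM. Slc48a1, the heme transporter of the phagolysosome, rose by 0.52 ± 0.07 and Ftl1, the ferritin light chain, by 0.54 ± 0.11. Genes from heme uptake through Cd163 to breakdown and iron export thus rose together. The 2 that fell were Tfrc, the transferrin receptor (-0.65), and Lcn2, a siderophore-binding lipocalin (-1.303). The ferritin heavy chain gene Fth1, at 4613, 3162 and 4865 CPM and 4616, 3774 and 5336 CPM, was not called (adjusted p = 0.497). 

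Growth factors and matrix-remodelling genes rose in 17 of 28 tested and fell in 0 (median 0.56). Without replicate 1 there were 10 higher and 2 lower. Igf1, insulin-like growth factor 1 (ENSMUSG00000020053, chromosome 10, 87858265 to 87937042, plus strand), was at 1.31, 3.58 and 0.414 CPM in the negative and 20.1, 25 and 14.8 CPM in the positive libraries, and rose by 3.67 ± 0.33 (adjusted p = 0.000396). Pdgfc, a ligand of the platelet-derived growth factor receptor on fibroblasts, was at 19.9, 17.8 and 7.55 CPM in the negative and 86.3, 73.2 and 65.6 CPM in the positive libraries, and rose by 2.39 ± 0.19 (adjusted p = 0.000255). Il10, an anti-inflammatory cytokine, was at 1.01, 0.791 and 1.54 CPM in the negative and 4.23, 2.51 and 3.24 CPM in the positive libraries, and rose by 1.596 ± 0.24 (adjusted p = 0.00319). Vegfa, the angiogenic factor, rose by 0.75 ± 0.20 (adjusted p = 0.0364). Among proteases and inhibitors, the collagenase gene Mmp13 was at 289, 379 and 184 CPM in the negative and 613, 832 and 539 CPM in the positive libraries, and rose by 1.26 ± 0.11 (adjusted p = 0.000396). Timp2, an inhibitor of metalloproteinases, was at 211, 181 and 138 CPM in the negative and 546, 347 and 442 CPM in the positive libraries, and rose by 1.33 ± 0.14 (adjusted p = 0.000616). The groups did not overlap for Igf1, Pdgfc, Mmp13 or Timp2. Mmp2, a gelatinase, rose by 1.45 ± 0.10, with its highest values in replicate 2 of both groups (7.14, 22.9 and 4.23 CPM against 16.7, 66.6 and 12.8 CPM). Fn1, fibronectin, showed the opposite dependence on the number, at 1647, 352 and 1672 CPM against 2567, 546 and 2222 CPM, and rose by 0.56 ± 0.10. Il10, Vegfa and Fn1 were not called without replicate 1 (adjusted p = 0.0501, 0.264 and 0.0574). Vegfa and Fn1 were not called without replicate 2 (adjusted p = 0.0622 and 0.0892). Vegfa was not called in the paired DESeq2 fit (adjusted p = 0.144).

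Of 25 TGF-beta ligand, activation and receptor genes tested, 6 rose and 1 fell (median 0.12), and without replicate 1 the counts were 1 and 0. Tgfb1, the main ligand made by macrophages, was at 318, 179 and 316 CPM in the negative and 355, 202 and 397 CPM in the positive libraries, with the positive library above its negative one in each number and a difference of 0.22 that was not called (adjusted p = 0.0966). Tgfbr2, the ligand-binding receptor, was at 294, 259 and 267 CPM in the negative and 493, 376 and 466 CPM in the positive libraries, and rose by 0.695 ± 0.09 (adjusted p = 0.00148). Nrros, which anchors latent TGF-beta on myeloid cells, rose by 0.35 ± 0.08, and Itgb8, a chain of an integrin that releases it, fell by 1.08 ± 0.31 at about 1 CPM or less. The co-receptor gene Eng rose by 0.45 ± 0.10 and the signal transducer gene Smad3 by 0.46 ± 0.12. Nrros, Itgb8, Eng and Smad3 were not called without replicate 1 (adjusted p = 0.0918, 0.159, 0.0558 and 0.0674). Itgb8 was not called without replicate 2 (adjusted p = 0.134) or in the paired DESeq2 fit (adjusted p = 0.233). Itgb8 and Smad3 were not called without replicate 3 (adjusted p = 0.0767 and 0.0677). Smad3 was not called with upper-quartile scaling (adjusted p = 0.0539).

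Of 26 chemokine ligands tested, 11 rose and 3 fell (median 0.46), and without replicate 1 the counts were 4 and 3. Besides Ccl8, the monocyte attractant Ccl7 was at 22.5, 23.1 and 7.99 CPM in the negative and 116, 66.2 and 114 CPM in the positive libraries, and rose by 2.51 ± 0.36 (adjusted p = 0.00225). Ccl2, the main ligand of CCR2, was at 34.03, 32.2 and 23.1 CPM in the negative and 95.8, 49.5 and 104 CPM in the positive libraries, and rose by 1.43 ± 0.24 (adjusted p = 0.00484). Pf4, platelet factor 4, which tissue macrophages also express, was at 69.9, 70.6 and 19.5 CPM in the negative and 353, 213 and 286 CPM in the positive libraries, and rose by 2.56 ± 0.37 (adjusted p = 0.00236). These ligands were lowest in negative replicate 3. Ccl6 rose by 0.99 ± 0.14. The ligands of CCR4 fell: Ccl22 was at 27.996, 26.8 and 65.3 CPM in the negative and 3.04, 1.801 and 4.39 CPM in the positive libraries, and fell by 3.66 ± 0.15 (adjusted p = 2.54e-05), and Ccl17 fell by 1.41 ± 0.11 from 37.2, 23.2 and 47.7 CPM to 11.7, 10.1 and 18.5 CPM. The third ligand that fell was Cx3cl1 (-1.27). Cxcl16 was at 830.1, 662 and 645 CPM and 849, 806 and 903 CPM and was not called (adjusted p = 0.126). Ccl7 and Ccl2 were not called without replicate 1 (adjusted p = 0.0515 and 0.083).

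Of 16 chemokine receptors tested, 4 rose and 4 fell, and 2 rose and 3 fell without replicate 1. Cx3cr1, the fractalkine receptor of patrolling and tissue myeloid cells, was at 627, 548 and 386 CPM in the negative and 909, 830.1 and 944 CPM in the positive libraries, and rose by 0.81 ± 0.15 (adjusted p = 0.00742). Ccr2, which brings monocytes out of the bone marrow, was at 899, 1239 and 713 CPM in the negative and 430.3, 917 and 501 CPM in the positive libraries, and fell by 0.67 ± 0.13 (adjusted p = 0.00994). Its level was highest in replicate 2 of each group, and the groups overlapped. Cxcr4 rose by 0.95 ± 0.11 and Ccr1 by 0.33 ± 0.09. Ccr7, which guides antigen-presenting cells to lymph nodes, was at 6.13, 2.9998 and 12.1 CPM and 1.298, 0.0819 and 3.95 CPM and fell by 2.33 ± 0.40. Ccr6, the receptor for CCL20, fell by 1.92 ± 0.12, and Cxcr2, a neutrophil receptor, by 1.39 ± 0.21. Both were far lower in replicate 2 of either group, with Ccr6 at 25.4, 0.651 and 56.4 CPM and 6.49, 0.109 and 15.9 CPM. Ccr1 and Ccr7 were not called without replicate 1 (adjusted p = 0.0841 and 0.0745). Ccr1 was not called without replicate 2 (adjusted p = 0.19), without replicate 3 (adjusted p = 0.0554) or with upper-quartile scaling (adjusted p = 0.0751).

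Genes used to label macrophage activation did not move as 1 block. Of 19 genes of IL-4 and IL-13 signalling and alternative activation tested, 6 rose and 8 fell (median -0.22), against 4 and 5 without replicate 1. Arg1, the arginase of alternatively activated macrophages, was at 72.7, 7.77 and 38.2 CPM in the negative and 357, 42.003 and 168 CPM in the positive libraries, and rose by 2.28 ± 0.09 (adjusted p = 1.84e-05). The positive library was higher in each number although the groups overlapped, since replicate 2 was low in both. Il4ra, the shared IL-4 receptor chain, was at 554, 377 and 443 CPM in the negative and 901, 629.7 and 724 CPM in the positive libraries, and rose by 0.72 ± 0.08 (adjusted p = 0.00105). Il13ra1, its partner for IL-13, was at 344, 405 and 413 CPM in the negative and 275, 315 and 264 CPM in the positive libraries, and fell by 0.44 ± 0.09 (adjusted p = 0.0126). The transcription factor gene Irf4 fell by 0.82 ± 0.12 and Chil3, a chitinase-like product of alternatively activated macrophages, by 0.58 ± 0.10. Of 20 inflammatory genes tested, 2 rose and 5 fell (median -0.18), against 0 and 3 without replicate 1 and 5 and 4 without replicate 3. The 10% that rose was near the 10.8% of all genes. Tnf was at 96.1, 48.9 and 225 CPM in the negative and 64.03, 35.8 and 79.2 CPM in the positive libraries, and fell by 0.85 ± 0.18 (adjusted p = 0.0137). Cd40, a costimulatory receptor, fell by 0.71 ± 0.08 from 31.99, 34.6 and 46.9 CPM to 19.5, 23.6 and 25.9 CPM. The inducible nitric oxide synthase gene Nos2 and Il6 rose by 1.19 ± 0.28 and 1.52 ± 0.43 at low levels, with Nos2 at 12.04, 0.279 and 11.1 CPM and 29.8, 2.02 and 16.4 CPM. Il1b was at 1178, 530.2 and 1966 CPM and 868, 539.7 and 1233 CPM and was not called (adjusted p = 0.105). Tnf, Nos2 and Il6 were not called without replicate 1 (adjusted p = 0.0721, 0.197 and 0.293). Nos2 was not called in the paired DESeq2 fit (adjusted p = 0.0658). Il6 was not called with a filter of 1 CPM in 3 libraries (adjusted p = 0.0521).

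Of 23 type I interferon response genes tested, 2 rose and 2 fell (8.7% in each direction, near the shares of all genes), and without replicate 1 the counts were 0 and 1. They were Rsad2 (0.61) and Mx1 (0.28), which rose, and Oas3 (-0.73) and Usp18 (-0.39), which fell. Of 23 hypoxia and glycolysis genes tested, 7 rose and 1 fell (median 0.09), against 3 and 1 without replicate 2, 4 and 2 with upper-quartile scaling and 1 and 1 without replicate 1. Hif1a, the oxygen-regulated transcription factor, rose by 0.34 ± 0.09, and Bnip3, a mitochondrial target of it, by 0.64 ± 0.10. Slc2a3, the glucose transporter GLUT3, fell by 0.902 ± 0.12 from 20.1, 18.8 and 23.8 CPM to 10.8, 11.9 and 10.7 CPM. Rsad2, Mx1, Usp18, Hif1a and Bnip3 were not called without replicate 1 (adjusted p = 0.0623, 0.118, 0.12, 0.133 and 0.059). Mx1 and Usp18 were not called without replicate 2 (adjusted p = 0.178 and 0.0658). Mx1 was not called without replicate 3 (adjusted p = 0.0777), in the paired DESeq2 fit (adjusted p = 0.104) or with no filter on low counts (adjusted p = 0.0503). Mx1 and Hif1a were not called with upper-quartile scaling (adjusted p = 0.0818 and 0.053).

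Among 17 lineage factors tested, 4 rose and 1 fell, against 1 and 0 without replicate 1, 4 and 2 without replicate 2 and 5 and 0 without replicate 3. Maf, a transcription factor of resident-type macrophages, was at 165, 145 and 63.96 CPM in the negative and 571, 295 and 465 CPM in the positive libraries, and rose by 1.88 ± 0.29 (adjusted p = 0.00337). Zeb2, a factor of myeloid identity, rose by 0.76 ± 0.12 and the growth factor gene Csf1 by 0.51 ± 0.08, and the orphan nuclear receptor gene Nr4a1 fell by 0.48 ± 0.13. Irf8 was at 278, 261 and 248 CPM and 273, 291 and 298 CPM and was not called (adjusted p = 0.338). Of 21 myeloid checkpoint genes tested, 8 rose and 5 fell, and 4 rose without replicate 1 and 5 without replicate 2. Entpd1, the ectonucleotidase CD39, was at 229.7, 200.01 and 193 CPM in the negative and 399.9, 334 and 364 CPM in the positive libraries, and rose by 0.82 ± 0.08 (adjusted p = 0.000585). Vsir, which encodes the inhibitory ligand VISTA, was at 647, 500.4 and 442 CPM in the negative and 849, 686 and 758 CPM in the positive libraries, and rose by 0.54 ± 0.10 (adjusted p = 0.00855). Siglece, an inhibitory sialic acid receptor, was at 76.02, 75.3 and 101 CPM in the negative and 35.2, 40.3 and 42.4 CPM in the positive libraries, and fell by 1.09 ± 0.08 (adjusted p = 0.000246). Each of these 3 genes separated the groups in full. Siglecg and Btla fell by 1.59 ± 0.26 and 2.02 ± 0.31 at a few CPM or less. Maf, Zeb2, Csf1 and Nr4a1 were not called without replicate 1 (adjusted p = 0.0616, 0.0591, 0.0555 and 0.1). Nr4a1 was not called without replicate 3 (adjusted p = 0.058).

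**Figure D4:**
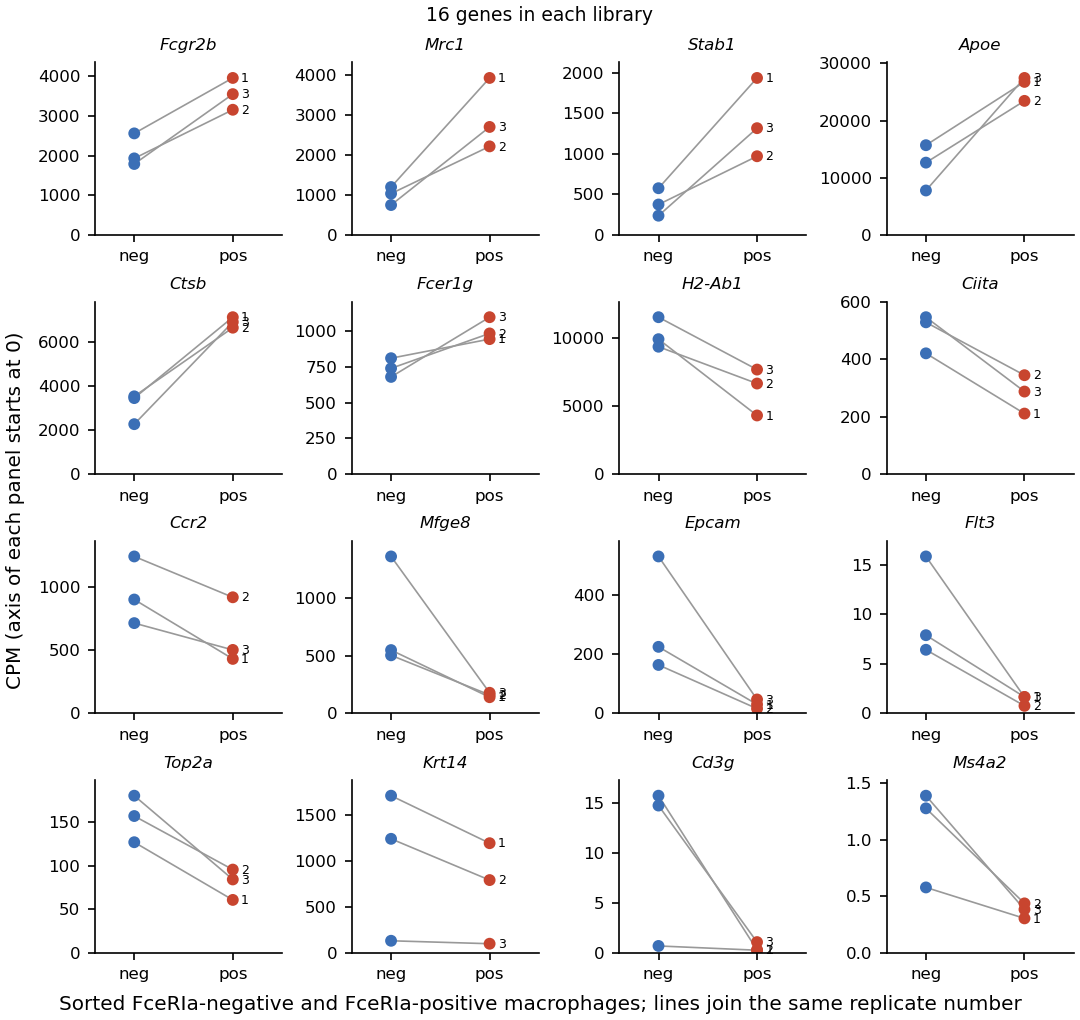
CPM of 16 genes in the negative (blue, left) and positive (red, right) library of each replicate number, joined by a line, on linear axes that start at 0. The first 6 genes rise in each of the 3 numbers and the other 10 fall in each, and the level of Krt14 differs more between numbers than between groups.

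By the same rule of size, the 12 largest falls were of H2-M5, Cyp4f37, P2rx2, Cldn1, Ly75, Lpar3, Ccl22, Trp53i11, Epcam, Spint1, Cd207 and P2rx5, with differences from -6.09 to -2.79. H2-M5, a nonclassical MHC class I gene (ENSMUSG00000024459, chromosome 17, 36984061 to 36989537, minus strand), was at 13.9, 27.2 and 74.2 CPM in the negative and 0.5801, 0.191 and 0.796 CPM in the positive libraries, and fell by 6.09 ± 0.32 (adjusted p = 6.79e-05). P2rx2, an ATP-gated ion channel, was at 28.7, 59.7 and 113 CPM in the negative and 1.55, 2.95 and 2.21 CPM in the positive libraries, and fell by 4.78 ± 0.25 (adjusted p = 6.76e-05). Cldn1, the tight junction protein claudin-1, was at 85.9, 99.8 and 264 CPM in the negative and 6.02, 4.83 and 7.72 CPM in the positive libraries, and fell by 4.45 ± 0.22 (adjusted p = 5.71e-05). Each was highest in negative replicate 3 and at a few CPM or less in all positive libraries. Ly75, the endocytic receptor DEC-205 of dendritic and Langerhans cells, was at 19.9, 30.6 and 76.2 CPM in the negative and 3.204, 1.23 and 3.01 CPM in the positive libraries, and fell by 3.94 ± 0.36 (adjusted p = 0.000414). Lpar3, a lysophosphatidic acid receptor, was at 27.7, 36.3 and 86.4 CPM in the negative and 2.597, 4.04 and 4.18 CPM in the positive libraries, and fell by 3.67 ± 0.21 (adjusted p = 9.05e-05). P2rx5, another ATP-gated channel, fell by 2.79 ± 0.15, and Spint1, a protease inhibitor of epithelia, fell by 3.16 ± 0.35. Cyp4f37 and Trp53i11 fell by 4.79 ± 0.30 and 3.58 ± 0.37. The 12 genes kept their paired call without each replicate number and under each other scaling, filter and tool that was run.

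Langerhans cell markers fell together. Of 10 tested, 8 fell and 0 rose, with a median of -1.66, and 7 fell without replicate 1. Epcam, the adhesion molecule that Langerhans cells share with epithelia (ENSMUSG00000045394, chromosome 17, 87635979 to 87651129, plus strand), was at 224, 163 and 529 CPM in the negative and 30.3, 16.1 and 46.996 CPM in the positive libraries, and fell by 3.24 ± 0.13 (adjusted p = 1.96e-05). Cd207, which encodes langerin, was at 44.2, 188 and 209.6 CPM in the negative and 5.77, 37.7 and 13.3 CPM in the positive libraries, and fell by 3.06 ± 0.28 (adjusted p = 0.000396). Mfge8 was at 548, 502 and 1357 CPM in the negative and 140.2, 159.8 and 178 CPM in the positive libraries, and fell by 2.18 ± 0.22 (adjusted p = 0.000611). Negative replicate 3 was the highest of all libraries for the 3 genes, and langerin varied among positive libraries from 5.77 to 37.7 CPM. Cd24a, a mucin-like surface protein, fell by 1.99 ± 0.20 and Ltc4s, the leukotriene C4 synthase, by 1.105 ± 0.08. The summed level of the 10 markers was 1225 to 3183 CPM in the negative and 414 to 604 CPM in the positive libraries, and none was at 0. The gate shared by both groups, F4/80, does not separate Langerhans cells from macrophages, and the part of such cells in the other results was not tested.

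Dendritic cell genes fell as well, in 9 of 11 tested with 0 that rose (median -1.47). Without replicate 1 the count was 5. Flt3, the growth factor receptor of dendritic cells, was at 7.89, 6.42 and 15.8 CPM in the negative and 1.66, 0.764 and 1.65 CPM in the positive libraries, and fell by 2.85 ± 0.22 (adjusted p = 0.000234). Zbtb46, a transcription factor of conventional dendritic cells, was at 5.23, 6.19 and 11.9 CPM in the negative and 2.02, 1.66 and 1.89 CPM in the positive libraries, and fell by 1.98 ± 0.24 (adjusted p = 0.00123). Itgae, the integrin CD103, was at 26.8, 15.2 and 49.96 CPM in the negative and 3.95, 4.69 and 4.096 CPM in the positive libraries, and fell by 2.69 ± 0.30 (adjusted p = 0.000885). All 3 were low next to the macrophage genes, and their groups did not overlap. Dpp4 and Kmo fell by 1.67 ± 0.15 and 1.47 ± 0.12. The summed level of the 12 listed genes was 469 to 612 CPM in the negative and 234 to 344 CPM in the positive libraries. Siglech, a marker of plasmacytoid dendritic cells, fell by 3.71 ± 0.35 from 3.19, 3.86 and 12.3 CPM to 0.331, 0.519 and 0.442 CPM, whereas Tcf4, a factor of the same lineage, rose by 0.77 ± 0.08. 

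MHC class II genes, by which professional antigen-presenting cells show peptides to CD4 T cells, were lower in the positive macrophages. Of 13 tested, 9 fell and 0 rose, with a median of -0.66. Ciita, the coactivator that switches these genes on, was at 421, 529 and 547 CPM in the negative and 211, 345 and 288 CPM in the positive libraries, and fell by 0.85 ± 0.10 (adjusted p = 0.00104). H2-Ab1, the beta chain of the classical molecule I-A, was at 9943, 9388 and 11562 CPM in the negative and 4324, 6676 and 7705 CPM in the positive libraries, and fell by 0.76 ± 0.17 (adjusted p = 0.0168). H2-Aa, its alpha chain, was at 12908, 11229.8 and 15889 CPM in the negative and 5929, 9231 and 10628 CPM in the positive libraries, and fell by 0.66 ± 0.18 (adjusted p = 0.038). In each number the positive library was lower for the 3 genes, and positive replicate 1 was the lowest of all libraries. H2-Oa and H2-Ob, the chains of a molecule that tempers peptide loading, fell by 1.82 ± 0.17 and 1.34 ± 0.11. H2-DMa and H2-DMb1, which catalyse that loading, fell by 0.66 ± 0.12 and 0.62 ± 0.13. Cd74, the invariant chain, was at 17462, 15157 and 19203 CPM and 9349.5, 12887 and 14859 CPM, below in all positive libraries, and was not called (adjusted p = 0.0818). H2-Eb1 differed more between numbers, at 3091, 8344 and 1614 CPM and 1527, 6200.5 and 1921 CPM, than between groups (adjusted p = 0.242). Reads of the similar genes H2-DMb1 and H2-DMb2 may have been divided between them. H2-Ab1, H2-Aa and H2-DMb1 were not called without replicate 1 (adjusted p = 0.0821, 0.174 and 0.0592). H2-Aa was not called without replicate 2 (adjusted p = 0.0639).

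Promoters of 2 class II genes are shown because these genes share a conserved promoter module, whose Y box holds the pentamer ATTGG, and moved together here. ATTGG was searched on both strands (CCAAT on the other), and 7 of the 9 class II genes with a RefSeq promoter (77.8%) held it in the 250 bases before the start, against 34.5% of the promoters of all 27025 genes. Of the 7, 6 fell, and the other was H2-Eb1. Over the whole list 9 of the 13 genes tested fell. Whether the pentamer had a part in the falls was not tested. The motif is in capitals in the 120 bases before the start, and occurs once in each.
H2-Aa, chr17:34287824-34287943, minus strand: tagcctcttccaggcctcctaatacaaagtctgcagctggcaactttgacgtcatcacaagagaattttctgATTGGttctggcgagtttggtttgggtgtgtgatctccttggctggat
H2-Oa, chr17:34092259-34092378, plus strand: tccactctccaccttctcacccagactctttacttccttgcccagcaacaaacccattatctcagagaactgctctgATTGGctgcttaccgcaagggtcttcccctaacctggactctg

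Cell cycle genes were lower in the positive macrophages in 25 of 26 tested, and 0 rose (median -0.76). Without replicate 1, 15 fell. Top2a, the topoisomerase of replicating and dividing cells, was at 127, 157 and 181 CPM in the negative and 60.7, 95.6 and 84.2 CPM in the positive libraries, and fell by 0.96 ± 0.09 (adjusted p = 0.000549). Cdc20, the activator of the anaphase-promoting complex, was at 31.2, 25.02 and 35.04 CPM in the negative and 13.04, 12.4 and 13.3 CPM in the positive libraries, and fell by 1.22 ± 0.10 (adjusted p = 0.000274). Bub1b, a kinase-like protein of the spindle checkpoint, was at 40.2, 39.8 and 58.1 CPM in the negative and 17.5, 19.6 and 23.1 CPM in the positive libraries, and fell by 1.19 ± 0.09 (adjusted p = 0.000192). The lowest negative library was above the highest positive one for each. The cyclin gene Ccna2 fell by 1.05 ± 0.10, Ccnb1 fell by 1.11 ± 0.11 and Ccnb2 fell by 1.199 ± 0.11, and the survivin gene Birc5 fell by 1.0 ± 0.11. The gene of the list that was not called was Ccnd2 (-0.28, adjusted p = 0.0682). 

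The promoters of Top2a and Cdc20 are shown for 2 motifs. The motifs are the CCAAT pentamer (ATTGG on the other strand) and the hexamer TTTGAA of the cell cycle homology region. Of 20 cell cycle genes with a RefSeq promoter, 17 (85%) held ATTGG and 6 (30%) held TTTGAA on either strand in the 250 bases before the start, against 34.5% and 16.3% of the promoters of all 27025 genes. The genes with ATTGG include replication genes such as Mcm2 and Pcna. All 17 and all 6 fell, as did 25 of the 26 cell cycle genes tested. Whether either motif had a part in the falls was not tested. The motifs do not overlap in the sequences printed. Both are in capitals in the 120 bases before the start, with 3 and 1 matches in Top2a and 2 and 1 in Cdc20.
Top2a, chr11:99024190-99024309, minus strand: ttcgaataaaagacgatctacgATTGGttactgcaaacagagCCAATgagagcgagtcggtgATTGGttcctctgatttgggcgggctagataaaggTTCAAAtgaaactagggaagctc
Cdc20, chr4:118437344-118437463, minus strand: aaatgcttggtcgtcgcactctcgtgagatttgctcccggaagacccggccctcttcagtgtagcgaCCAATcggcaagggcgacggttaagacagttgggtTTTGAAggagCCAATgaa

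Receptors of the IL-1 family, among them the IL-33 receptor, were lower in the positive macrophages. Of 19 genes of this receptor and of NF-kB signalling tested, 0 rose and 5 fell, all 5 of them receptors, and 1 rose without replicate 3. Il1rl1, the IL-33 receptor ST2, was at 3.19, 8.77 and 4.44 CPM in the negative and 1.24, 3.08 and 1.36 CPM in the positive libraries, and fell by 1.52 ± 0.17 (adjusted p = 0.000879). Il1rap, the accessory chain it shares with the IL-1 receptor, was at 60.3, 43.4 and 75.6 CPM in the negative and 42.2, 28.8 and 43.5 CPM in the positive libraries, and fell by 0.64 ± 0.08 (adjusted p = 0.00133). Il1r1, the signalling IL-1 receptor, was at 15.1, 28.6 and 29.5 CPM in the negative and 5.99, 7.91 and 4.89 CPM in the positive libraries, and fell by 1.92 ± 0.21 (adjusted p = 0.000775). The positive library was the lower one in each number for the 3 chains. Il1r2, a decoy receptor, fell by 1.34 ± 0.10 from 446, 133 and 594 CPM to 175, 61.2 and 206 CPM, and Sigirr, a negative regulator, by 0.98 ± 0.15. Il1r2 was also counted among the Langerhans cell markers above. Il33 itself was low, at 4.901, 4.28 and 0.799 CPM and 3.95, 3.49 and 0.766 CPM, and was not called (adjusted p = 0.358). 

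Markers of other cells that a CD45+ F4/80+ gate could hold were measured beside these groups. Mast cell and basophil markers, the cells in which FceRI is abundant, fell in 5 of 13 tested and rose in 0, and 2 fell without replicate 1. Kit, the stem cell factor receptor, was at 11.9, 10.3 and 16.9 CPM in the negative and 3.84, 2.48 and 4.83 CPM in the positive libraries, and fell by 1.82 ± 0.13 (adjusted p = 0.000201). Mcpt8, a basophil protease, fell by 2.15 ± 0.50 at 1.48, 0.628 and 2.604 CPM and 0.0829, 0.382 and 0.5598 CPM, and the histidine decarboxylase gene Hdc by 1.28 ± 0.26. The summed level of the 15 listed markers was 20.999 to 163 CPM in the negative and 10.9 to 43.7 CPM in the positive libraries, and the basophil protease gene Prss34 had 0 counts in all 6. In each number the summed level was lower in the positive library. Mcpt8 and Hdc were not called without replicate 1 (adjusted p = 0.1 and 0.103). Hdc was not called in the paired DESeq2 fit (adjusted p = 0.102).

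T and NK cell genes fell in 6 of 8 tested, in 2 without replicate 1 and in 4 without replicate 3. Cd3g, a chain of the T cell receptor complex, was at 15.8, 0.674 and 14.8 CPM in the negative and 0.276, 0.246 and 1.06 CPM in the positive libraries, and fell by 4.16 ± 0.52 (adjusted p = 0.00136). Negative replicate 2 lacked this signal, and Cd3e, which did not pass the filter on low counts, had the same pattern at 119, 6 and 129 and 8, 6 and 9 counts. Nkg7 and Prf1, genes of cytotoxic cells, fell by 4.58 ± 0.57 and 4.22 ± 0.50. The gene of this list that rose was Cd4, which mouse macrophages also express, and it was at 49.5, 68.1 and 34.95 CPM in the negative and 122, 168 and 133 CPM in the positive libraries, and rose by 1.505 ± 0.13 (adjusted p = 0.000354). The summed level of the 15 listed genes, most of it from Cd4, was 74.5 to 89.7 CPM in the negative and 125 to 172 CPM in the positive libraries. Transcripts of Cd3g, Cd3e, Nkg7 and Prf1 were each more abundant in negative replicates 1 and 3 than in the other 4 libraries. 

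Keratinocyte genes fell in 10 of 14 tested and rose in 0, with a median of -0.51. Krt14, a keratin of basal keratinocytes and carcinoma cells, was at 1706, 1237 and 129 CPM in the negative and 1189, 789 and 97.2 CPM in the positive libraries, and fell by 0.53 ± 0.10 (adjusted p = 0.00658). Krt5, its partner, was at 714, 611 and 76.9 CPM in the negative and 479, 385 and 54.01 CPM in the positive libraries, and fell by 0.59 ± 0.08 (adjusted p = 0.00231). The level depended mostly on the number, with replicate 3 low in both groups, and the summed level of the 14 genes was 409 to 4048 CPM in the negative and 329.7 to 2957 CPM in the positive libraries. Epcam, Cldn1 and Spint1, which epithelia also express, were highest in negative replicate 3, the negative library with the least Krt14 and Krt5. Which cells these transcripts came from was not tested. Without replicate 2, 4 keratinocyte genes fell and 1 rose, and without replicate 1, 5 fell. Krt14 was not called without replicate 2 (adjusted p = 0.065).

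Monocyte genes fell in 6 and rose in 2 of 10 tested, with 1 higher without replicate 1 and 1 without replicate 2. Plac8 and Ly6c2, of circulating monocytes, fell by 0.95 ± 0.10 and 1.11 ± 0.18, and F13a1, a coagulation factor of monocytes and resident-type macrophages, was at 329, 132 and 117 CPM in the negative and 1735, 453 and 785 CPM in the positive libraries, and rose by 2.31 ± 0.17 (adjusted p = 0.00021). Neutrophil genes fell in 4 of 7 tested, with 1 lower without replicate 1 and 1 higher and 4 lower without replicate 3. Among them S100a9 fell by 1.14 ± 0.24 (252, 23.2 and 209 CPM against 109.5, 18.8 and 58.5 CPM). Of 4 eosinophil genes tested, 2 fell and 0 rose (median -0.61). Siglecf, a receptor of eosinophils and some macrophages, fell by 1.35 ± 0.14, while the eosinophil granule gene Prg2 had 0 counts in all libraries. Of 4 B and plasma cell genes tested, 1 fell and 0 rose (median 0.07). The gene that fell was Ighm, the heavy chain of IgM (-2.17 ± 0.20). The B cell genes Pax5, Jchain and Mzb1 had at most 3 counts in any library. Of 12 fibroblast genes tested, 1 rose and 1 fell (8.33% in each direction), and of 9 endothelial genes 1 rose and 1 fell (11.1%). These shares were near those of all genes (10.8% higher and 10.2% lower). Without replicate 1, 2 or 3 the fibroblast counts were 0 and 2, 3 and 1, and 2 and 1, and the endothelial ones 1 and 0, 1 and 1, and 1 and 2. Immediate early and heat shock genes, which respond to tissue handling, fell in 5 of 17 tested and rose in 0 (3 fell without replicate 1), and their summed level was 4001 to 9762 CPM in the negative and 3927 to 7807 CPM in the positive libraries. The part of these other cells and of handling in the results was not tested. Ly6c2 and S100a9 were not called without replicate 1 (adjusted p = 0.0581 and 0.129).

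**Figure D5:**
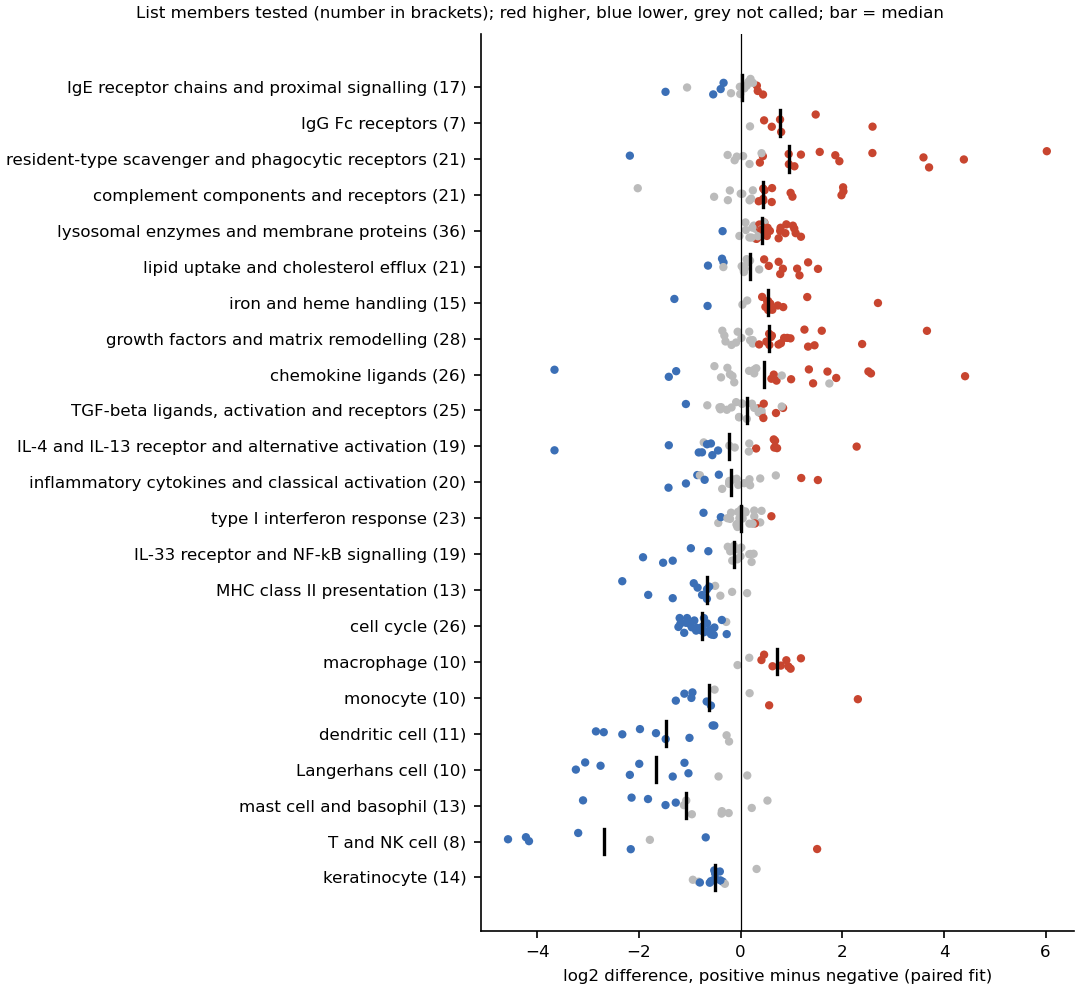
Log2 difference between positive and negative macrophages in the paired fit for each tested member of 23 gene lists, 1 point per gene, with the number tested in brackets and the list median as a black bar. Red points rose, blue points fell and grey points were not called. Scavenger receptor, lysosome, iron and macrophage members lie mostly to the right of 0 and class II, cell cycle, dendritic and Langerhans members to the left.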

How the data were processed

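RNA of flow-sorted macrophages was isolated with Trizol, and 100 ng of it went into each TruSeq v2 library, per the labels' protocols. The deposited values are raw read counts for each gene, as the authors produced them. The submitters' processing notes name FastQC, STAR and mm10 (GRCm38) but no versions. For the counter, its strand setting and its annotation nothing is given in the sources used here. Reads of overlapping or antisense genes and of near-identical copies therefore cannot be told apart. The tumor cell count table was not used, and 0 other columns of the macrophage table were left out. In both groups only the column name of replicate 2 ends in New, and what this marks is not given.

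Of 53801 gene rows, 53620 IDs matched GENCODE M21 (GRCm38), whose symbols and coordinates were used, the other 181 kept the name in the file, and 0 rows name no gene. The count test was edgeR 4.0.16 (R 4.3.3) by quasi-likelihood, with trimmed-mean scaling, the filterByExpr filter and Benjamini-Hochberg adjusted p under 0.05. The filter left 14988 genes with 99.92% of all counts, and 38813 genes were not tested. A gene detected in 1 group alone can pass this filter through that group. The planned fit was unpaired (4 residual degrees of freedom, biological coefficient of variation 0.302), and its alternative added a block for the replicate number (2 and 0.102). What a number stands for is not in the labels. The block was taken as pairing because deviations from the group means correlated at over 0.1 in all 3 same-number pairs.

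In simulated counts with this pair structure (14706 genes passed the filter), the paired fit recovered 93% of genes changed 2-fold and 100% of those changed 4-fold with 13 false calls, and the unpaired fit 24% and 74% with 0. The pairing was built into these counts, so they cannot decide between the paired and the unpaired fit.

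The 35 gene lists (22 of pathways and handling, 13 of cell type markers) and the rules for naming genes were chosen with earlier results of these data known. Named genes were those of the IgE receptor list with Adgre1, Ptprc, Il1rl1, Il33 and Tgfb1, the 12 higher and 12 lower called genes of largest difference with a mean of at least 10 CPM and groups that do not overlap, up to 5 per list of smallest p in either fit, list members with a mean of at least 500 CPM, and sex-linked genes. Predicted genes and antigen receptor segments were left out of the size rule, and not every gene it took is reported here. Outside this rule, Ccnd2, Cd9, Chil3, Clec10a, Cx3cl1, Fcgr1, Gaa, Gas6, Gla, Glb1, Il10, Lcn2, Mgl2, Naglu, Nceh1, Pros1, Tfeb, Tfrc, Vegfa and Cd3e were named with their values already seen. Alternatives tried were DESeq2 1.42.0, different scaling factors, no or a stricter count filter (1 CPM in 3 libraries), a threshold of 0.01 and leaving out libraries. List counts under these settings were added after seeing the data. The first RefSeq promoter window of each gene (GRCm38.p6) was searched.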

Additional observations from a re-analysis of the deposited data

How the results depend on the processing

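The paired comparison, with the replicate number as a block, called 1618 higher and 1524 lower genes where the unpaired fit called 0 and 0. The unpaired counts were 658 and 605 with DESeq2 and 292 and 331 without a filter on low counts. They were 0 in both directions with DESeq2 size factors, upper-quartile factors, the stricter filter and the threshold of 0.01. With 1 library left out the unpaired fit called 0 to 0 higher and 0 to 2 lower genes, 2 without negative replicate 1 and 1 without negative replicate 3. Paired counts were 856 and 751 at the threshold of 0.01. Without 1 replicate number they ranged from 626 to 1743 higher and from 691 to 1606 lower, both lowest without replicate 1. Under paired DESeq2, other scalings and other filters each count was within 1.5 times the main one, at 1289 to 1970 higher and 1362 to 2114 lower. Of the genes called in the paired fit, 2671 were also called by paired DESeq2 and 2813 with upper-quartile factors, in the same direction. Of 194 genes named and tested, 179 were called in the paired fit, 129 of them under every paired alternative at the 0.05 threshold that tested them. The other 50 lost the call at least once, 47 of them without replicate 1, and the cause was not tested. Direction reversed in the unpaired values of 7 genes when 1 library was left out. On the log2 scale, Fth1 ranged from -0.0428 to 0.241 (reversed at -0.0428 without negative replicate 2 and -0.0284 without positive replicate 3), H2-Eb1 ranged from -1.33 to 0.469 (reversed at 0.469 without negative replicate 2), Il1b ranged from -0.83 to 0.026 (reversed at 0.026 without negative replicate 3), Il33 ranged from -0.752 to 0.132 (reversed at 0.108 without negative replicate 1 and 0.132 without positive replicate 3), Krt14 ranged from -1.21 to 0.0241 (reversed at 0.0241 without negative replicate 1), Nr4a1 ranged from -1.08 to 0.155 (reversed at 0.155 without negative replicate 3) and Ptprc ranged from -0.0251 to 0.204 (reversed at -0.00678 without negative replicate 1 and -0.0251 without positive replicate 2). Depth limits what can be said of Fcer1a and Fcer2a, which had at most 7 counts in any library.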
